A study of Mus musculus with 6 samples.

Results

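The genes described here are 42 mouse genes that fold, check, export and modify proteins in the endoplasmic reticulum (ER), with the enzymes and chaperones that process collagen there. They were listed by name, for what their products do, from the 44788 genes of the count table. The choice was made with earlier results of these data known, so the counts of calls below may not be independent of it. They comprise 15 chaperones and folding enzymes, 7 genes of ER-associated degradation, 5 stress sensors and transcription factors, 6 genes of translocation and of COPII export, and 9 collagen-modifying enzymes and chaperones. All 42 passed the filter on low counts.

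The RNA came from chondrocytes of the femoral epiphysis of C57BL/6 mice, the cartilage end of the thigh bone. The sample labels give the age as postnatal day 1, whereas the culture and design texts say P2 without saying what it means. The cells were grown in DMEM/F12 medium with 10% fetal bovine serum, and 3 groups of 2 libraries were sequenced on an Ion Proton. Control cells received 0.1% DMSO, the solvent, for 48 h. Treated cells received 10 ng/ml TGF-α, a growth factor that activates the EGF receptor (EGFR), in the same DMSO for 48 h. The last group received 10 µM gefitinib, an inhibitor of the EGFR kinase, for 30 min before and then together with TGF-α for 48 h, again in 0.1% DMSO. The design text calls the control vehicle PBS, so the 2 texts differ on it. The analysed groups include no cells given gefitinib alone, so an effect of gefitinib that does not pass through the added TGF-α cannot be told apart from its effect on TGF-α signalling. Nothing in the labels says that the 2 libraries of a group came from separate cultures or animals. The p-values therefore measure the spread between these libraries, which may be technical.

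Secreted proteins enter the ER through the Sec61 channel, fold there with the help of chaperones and disulphide isomerases, and leave in COPII vesicles. Proteins that fail to fold are sent back to the cytosol for degradation, and the sensors Ire1, Perk and Atf6 adjust the supply of chaperones to the load in what is called the unfolded protein response. Cartilage cells secrete large amounts of collagen, whose chains need prolyl and lysyl hydroxylation, the collagen chaperone Hsp47 and enlarged export carriers.

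The promoters of these genes carry known response elements, so the sequences come first. RefSeq windows of 250 bases before to 50 bases after the annotated transcription start (GRCm38.p6) were found for 34 of the 42 genes, and both strands were searched for 4 strings of letters. The ER stress response element (ERSE), bound by Atf6 and Xbp1 together with NF-Y, was searched as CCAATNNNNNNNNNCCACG. Its variant ERSE-II was searched as ATTGGNCCACG, and the unfolded protein response element (UPRE) as TGACGTGG. All 3 contain the core CCACG or its reverse complement, so their matches are not independent of matches to the core. ERSE was present in 9 of the 34 genes, ERSE-II in 2 and UPRE in 2. The ERSE and ERSE-II matches are given here in the motif's own direction, with the letters that the motif fixes in capitals. The near match of Hsp90b1 and the matches of Calr, Creld2 and Derl3 lie on the strand opposite to their gene.
Hspa5: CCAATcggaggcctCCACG
Hsp90b1, far match: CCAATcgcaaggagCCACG
Hsp90b1, near match: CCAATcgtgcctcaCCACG
Pdia6: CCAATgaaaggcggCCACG
Calr: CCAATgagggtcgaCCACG
Canx: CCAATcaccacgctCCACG
Dnajc3: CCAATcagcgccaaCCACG
Creld2: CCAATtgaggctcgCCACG
Syvn1: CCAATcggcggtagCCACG
Derl3: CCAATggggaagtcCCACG
Herpud1: ATTGGgCCACG
Dnajb11: ATTGGcCCACG

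ERSE matched in 26.5% of the genes with a window, against 0.137% of all 27025 genes in the RefSeq promoter table (37 genes). ERSE-II matched in 5.88% against 0.0444% (12 genes), and UPRE in 5.88% against 0.714% (193 genes). The bare core CCACG was in 76.5% of the genes and in 35.5% of all genes. The genes were listed for ER functions, the unfolded protein response among them. These elements are known from such genes, so that choice set these contrasts beforehand. The RefSeq table also holds genes without counts in these libraries, Tdrd9 among them, whereas all the listed genes passed the filter. The matches lay with the chaperones and the degradation genes. ERSE was found in 7 of 13 chaperones and folding enzymes with a window and in 2 of 6 degradation genes. It was found in 0 of 3 sensors, 0 of 5 translocation and COPII genes and 0 of 7 collagen-modifying genes. The 2 UPRE matches were both in COPII coat genes, Sec23a and Sec24d. A match describes letters and is not evidence of binding, and the lack of one says only that these letters are not in this window. The windows of P4ha2 and Dnajb9 lay wholly inside the gene as annotated in GENCODE M21, after its first start. Hyou1, Manf, Derl1, Atf6, Creb3l1, Sec61a1, Plod2 and Fkbp10 had no entry in the table.

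The upstream stretches of 5 genes are shown whole because they carry matches while the genes differed in how they moved with TGF-α. Each reads 5′ to 3′ on the strand of its gene, ends before the first annotated start, and has its ERSE or ERSE-II match in capitals, a match on the opposite strand reading as its reverse complement. Hsp90b1 and Pdia6 rose with TGF-α, whereas Calr, Syvn1 and Herpud1 fell, as described further on.
Hsp90b1, chr10:86705510-86705694, minus strand: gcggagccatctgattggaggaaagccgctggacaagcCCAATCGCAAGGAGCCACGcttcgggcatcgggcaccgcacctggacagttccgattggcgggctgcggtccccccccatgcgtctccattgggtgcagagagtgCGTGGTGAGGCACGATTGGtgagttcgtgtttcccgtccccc
Pdia6, chr12:17266339-17266544, plus strand: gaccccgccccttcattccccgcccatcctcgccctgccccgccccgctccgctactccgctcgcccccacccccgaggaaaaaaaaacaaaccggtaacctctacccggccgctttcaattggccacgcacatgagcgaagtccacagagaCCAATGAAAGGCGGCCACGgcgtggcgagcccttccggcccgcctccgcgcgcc
Calr, chr8:84846935-84847181, minus strand: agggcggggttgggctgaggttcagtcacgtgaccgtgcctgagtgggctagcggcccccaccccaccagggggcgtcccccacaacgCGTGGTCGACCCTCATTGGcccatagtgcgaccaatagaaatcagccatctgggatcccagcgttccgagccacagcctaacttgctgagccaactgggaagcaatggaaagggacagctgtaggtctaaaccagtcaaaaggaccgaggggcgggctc
Syvn1, chr19:6046326-6046575, plus strand: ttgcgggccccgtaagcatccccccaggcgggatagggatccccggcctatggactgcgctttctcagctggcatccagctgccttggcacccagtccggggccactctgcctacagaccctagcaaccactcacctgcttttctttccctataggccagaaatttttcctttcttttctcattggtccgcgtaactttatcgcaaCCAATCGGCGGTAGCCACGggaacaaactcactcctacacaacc
Herpud1, chr8:94386179-94386428, plus strand: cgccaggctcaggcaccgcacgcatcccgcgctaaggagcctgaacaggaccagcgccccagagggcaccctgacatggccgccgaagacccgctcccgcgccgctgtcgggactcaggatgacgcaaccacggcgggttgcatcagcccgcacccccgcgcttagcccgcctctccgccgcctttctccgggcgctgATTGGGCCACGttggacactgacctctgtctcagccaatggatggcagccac

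The libraries held 12317407 to 16096263 counts and 20600 to 21067 detected genes. Of the 42 genes, 41 had at least 200 counts in every library and Derl3 had 10 to 22. The 7 target genes of ERK, the kinase downstream of EGFR, were all higher with TGF-α and all lower again with gefitinib, with median log2 fold changes of 2.30 and -2.90. All 8 chondrocyte markers, among them Col2a1 and Acan, were present and all 8 were called lower with TGF-α. Their summed level was 74660 ± 3406 CPM (mean ± SD, n = 2; CPM is a gene's normalised count scaled to a common library total) in control, 38020 ± 874 with TGF-α and 63870 ± 2060 with gefitinib added. Of the 7 fibroblast markers, 6 could be tested, and their summed level was 5994, 6424 and 4368 CPM in the same order. The 7 osteoblast markers summed to 155, 59.0 and 101 CPM, and the 7 macrophage and osteoclast markers to 70.7, 78.3 and 107 CPM. The 4 plasma cell markers, of which Sdc1 alone could be tested, summed to 150.0, 225.0 and 164 CPM. The other 3 were at or below 1 CPM in every library, so this sum was almost wholly Sdc1. Muscle and adipocyte markers summed to under 10 CPM. The 5 endothelial markers were at or near 0 in every library, with Cdh5 and Emcn at 0, and the macrophage markers Emr1 and Ptprc were at 0. In bulk RNA, fewer cells of a type and less RNA per cell cannot be told apart, and the part these marker shifts play in the results was not tested.

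With TGF-α, the ER, secretion and collagen-processing genes were lower more often than higher. With gefitinib added, 38 of the 42 did not differ from control by the test. The 4 that did lay near the share of all tested genes called in that comparison, 9.52%. At an edgeR adjusted p under 0.05, 4 of the 42 were higher and 19 lower in TGF-α against control, with a median log2 fold change of -0.13. Over all 15362 tested genes, 29.9% were called in this comparison, 15.9% higher and 14.0% lower, and the median was 0.00. Of all calls 53.2% were higher, and 65.4% with total-count scaling. The changes were small. Log2 fold changes ran from -0.69 for Serpinh1 to 0.51 for P4ha2, and 1 gene, Serpinh1, changed by at least 1.5-fold.

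With gefitinib and TGF-α against TGF-α alone, 17 of the 42 were higher and 5 lower, with a median of 0.14 on the log2 scale. Over all tested genes 34.0% were called here, 17.0% higher and 16.9% lower, with a median of 0.01. With gefitinib and TGF-α against control, 1 was higher, 3 were lower and 38 did not pass, and the background was 9.52%, with 5.27% higher and 4.26% lower. Of all calls there 55.3% were higher, and 77.5% with total-count scaling. Without TGF-α library 1 or 2 the 5 falls against TGF-α became 3. Against control, the single rise became 0 without any library other than gefitinib library 1, and the 3 falls became 1 without control library 1. The libraries of the groups did not overlap for 33, 36 and 28 of the 42 genes in the 3 comparisons, against 64.1%, 65.8% and 52.1% of all tested genes. The 3 comparisons share libraries, so their values stand side by side here and are not independent. The genes together took 2.11% and 2.13% of all counts in the control libraries, 1.87% and 1.91% with TGF-α, and 2.15% and 2.18% with gefitinib added.

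**Figure D1:**
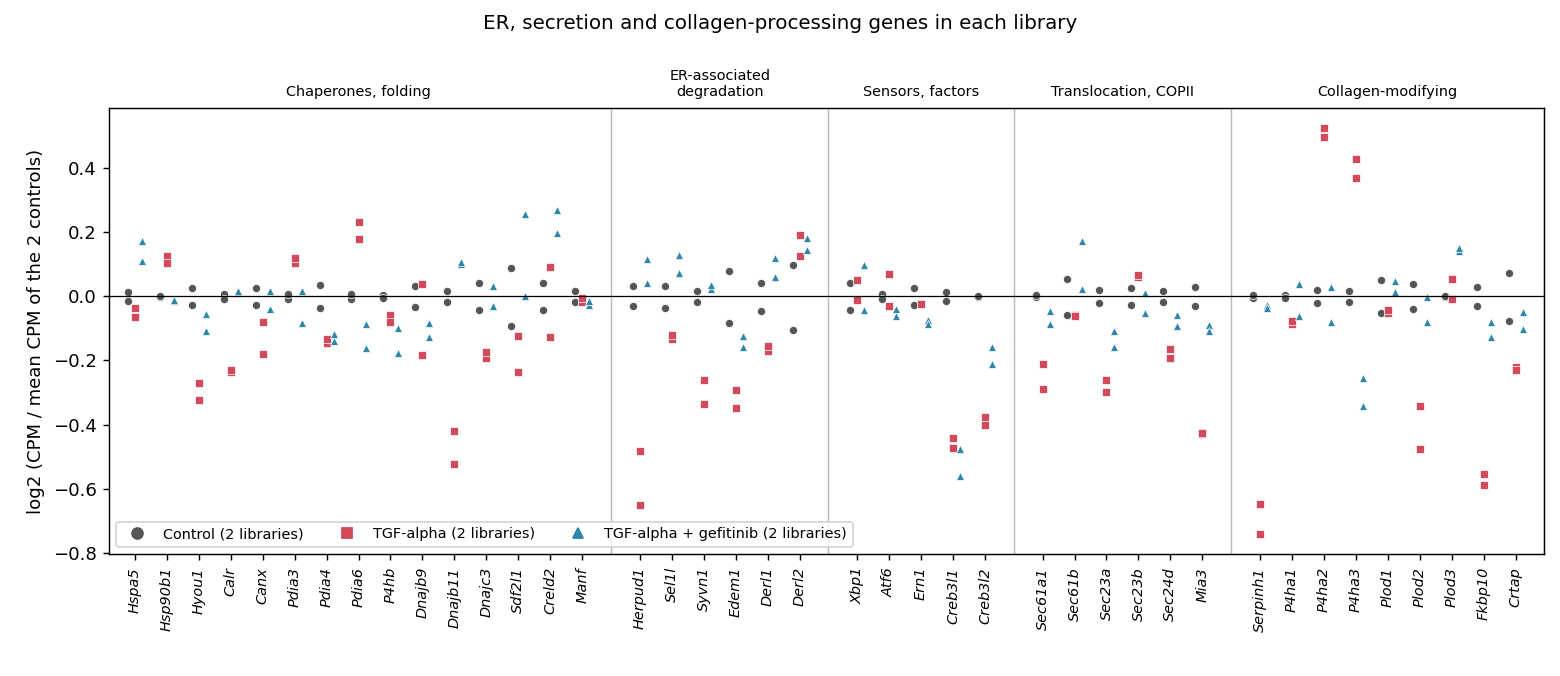
Level of 41 of the 42 genes in each of the 6 libraries, as log2 of the library's CPM over the mean CPM of the 2 control libraries, grouped by role. Circles are control, squares TGF-α and triangles TGF-α plus gefitinib; Derl3, with 10 to 22 counts, is left out. The squares of Serpinh1 lie lowest and those of P4ha2 highest, and the triangles of both lie near 0.

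By pattern, 13 genes were lower with TGF-α, higher when gefitinib was added and not called against control. These were Hyou1, Calr, Dnajb11 and Dnajc3 among the chaperones, Herpud1, Syvn1 and Derl1 in degradation, Sec61a1, Sec23a and Mia3 in translocation and export, and Serpinh1, Plod2 and Fkbp10 in collagen processing. The opposite pattern, higher with TGF-α and lower with gefitinib, was seen for Hsp90b1, Pdia6, P4ha2 and P4ha3. For 15 genes none of the 3 comparisons passed. They were Canx, P4hb, Dnajb9, Sdf2l1, Manf, Derl2, Derl3, Xbp1, Atf6, Ern1, Sec61b, Sec23b, P4ha1, Plod1 and Plod3. Leaving out Derl3, their TGF-α estimates lay between -0.18 for Sdf2l1 and 0.16 for Derl2 on the log2 scale.

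**Figure D2:**
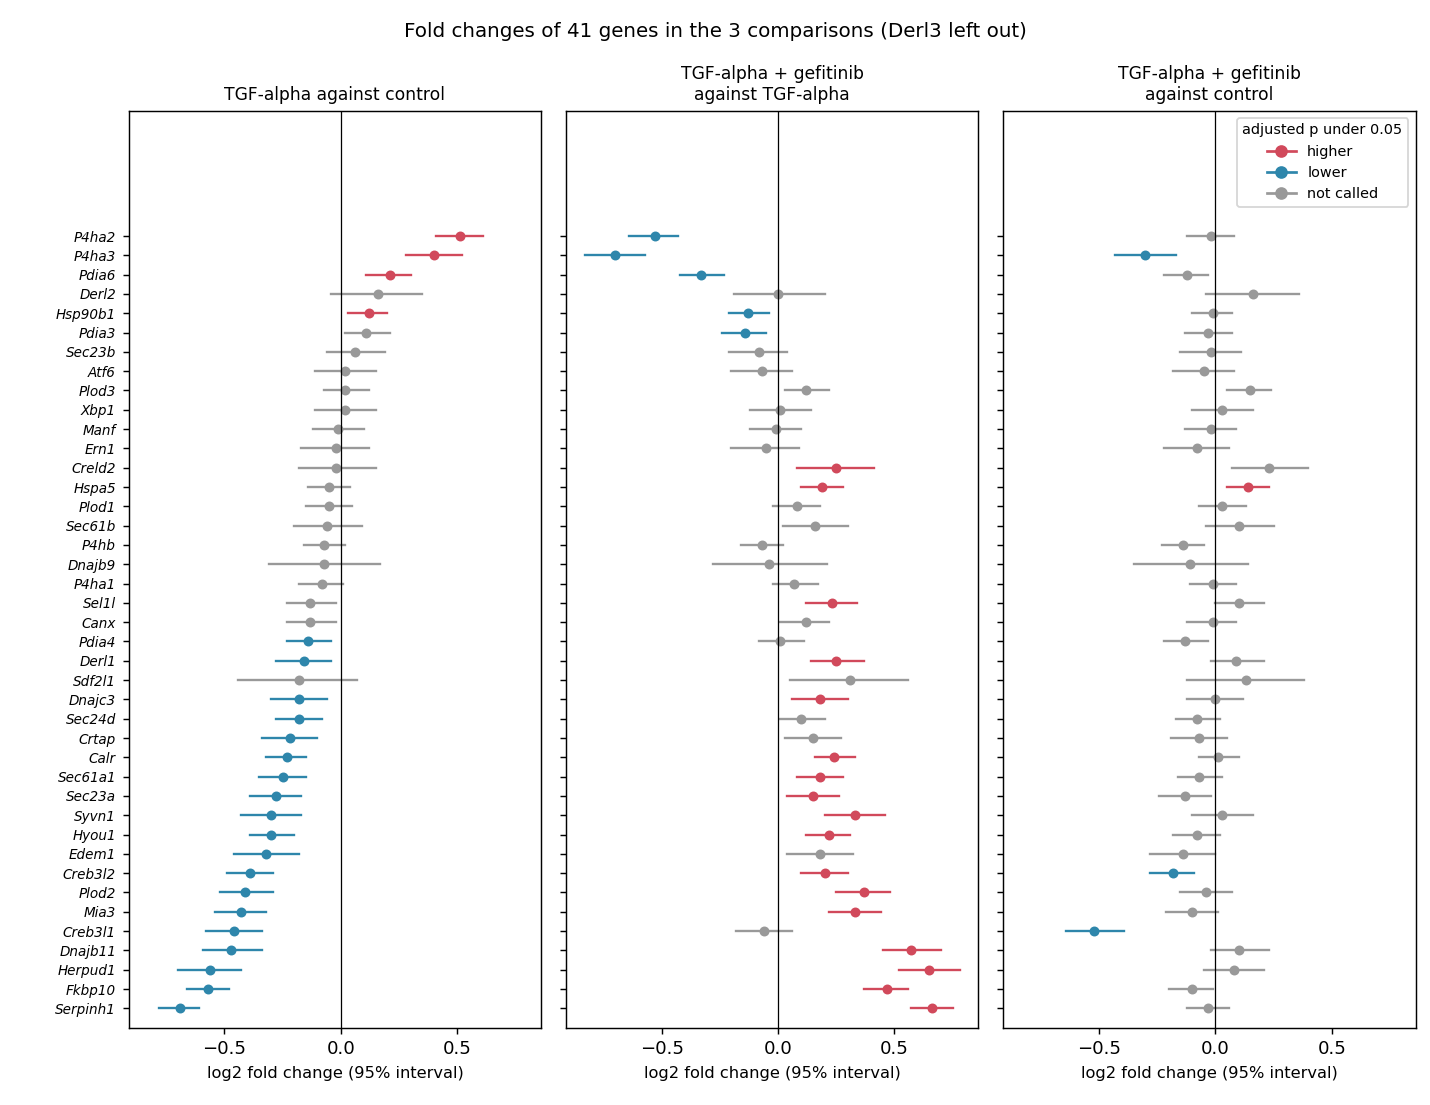
Log2 fold change with its 95% interval for 41 genes (Derl3 left out) in the 3 comparisons, ordered by the change with TGF-α. Colour marks genes called higher, lower or not at an edgeR adjusted p under 0.05; 19 lie lower in the left panel, 17 higher in the middle one, and 4 are coloured in the right one.

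Among the 15 chaperones and folding enzymes, 2 rose and 5 fell with TGF-α, and 6 rose and 3 fell when gefitinib was added. Over all tested genes 15.9% rose and 14.0% fell with TGF-α, and 17.0% rose and 16.9% fell with gefitinib. The 2 rises and the 3 falls lay near these shares. The same shares are the background for the other roles below. Dnajb11, the ERdj3 cochaperone that hands unfolded chains to BiP, had 118.5 and 115.9 CPM in control, 87.6 and 81.6 with TGF-α, and 125.7 and 126.3 with gefitinib added. Both TGF-α libraries were below all the others. It fell by 0.47 ± 0.06 (log2 fold change ± SE) with TGF-α (adjusted p = 1.95e-05) and rose by 0.57 ± 0.06 with gefitinib (adjusted p = 2.31e-06). Hyou1, the Grp170 nucleotide exchange factor of BiP, had 443.3 and 428.2, 361.6 and 348.4, and 419.7 and 404.5 CPM in the 3 groups. Its TGF-α libraries were again the lowest. It fell by 0.30 with TGF-α (adjusted p = 0.000182) and rose by 0.22 with gefitinib (adjusted p = 0.00227). Calr, the lectin chaperone calreticulin that binds freshly glycosylated proteins, had 1457 and 1443, 1232 and 1237, and 1460 and 1466 CPM. Its control and gefitinib libraries lay close together, and the TGF-α pair lay clear below them, 1.17-fold lower than control (adjusted p = 0.000365), and the gefitinib pair was 1.19-fold above TGF-α (adjusted p = 0.000208).

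Pdia6 and Hsp90b1 moved the other way. Pdia6, a disulphide isomerase, had 732.9 and 741.6 CPM in control, 834.6 and 866.2 with TGF-α, and 659.3 and 695.1 with gefitinib added. The TGF-α libraries were the highest and the gefitinib libraries the lowest. It rose by 0.21 ± 0.04 with TGF-α (adjusted p = 0.0024) and fell by 0.33 ± 0.04 with gefitinib (adjusted p = 3.97e-05). Hsp90b1, the Hsp90 of the ER lumen known as Grp94, had 999.8 and 1002, 1092 and 1077, and 990.6 and 993.4 CPM. It rose by 0.12 and fell by 0.13, with adjusted p of 0.0405 and 0.0224. Leaving out any 1 library of control or TGF-α gave an adjusted p between 0.107 and 0.164 for the rise, and leaving out TGF-α library 1, TGF-α library 2 or gefitinib library 2 gave 0.109, 0.0664 and 0.0604 for the fall. With DESeq2 size factors the rise was at 0.11 (adjusted p = 0.05), and with total-count scaling at 0.18, past the threshold. Exons of the antisense gene 1810014B01Rik cover 14.7% of its exon bases, and the strand setting of the counting is not given in the sources used here. Pdia3, the isomerase that works with the lectin chaperones, was not called with TGF-α (log2 fold change 0.11) and fell by 0.14 with gefitinib (adjusted p = 0.0239). That call was lost without TGF-α library 1 (0.0787), TGF-α library 2 (0.113) or gefitinib library 1 (0.129), and without gefitinib library 1 its TGF-α difference passed (0.0348).

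Hspa5, the BiP chaperone at the centre of the unfolded protein response, did not differ by the test between TGF-α and control (log2 fold change -0.05, 95% interval -0.14 to 0.04). Its libraries had 1328 and 1353 CPM in control, 1281 and 1307 with TGF-α, and 1448 and 1509 with gefitinib added. The gefitinib libraries were the highest of the 6. It rose by 0.19 ± 0.04 against TGF-α (adjusted p = 0.00222) and by 0.14 ± 0.04 against control (adjusted p = 0.0448), the only one of the 42 called higher in that last comparison. The call against control was lost when any library other than gefitinib library 1 was left out, with adjusted p from 0.0602 to 0.224, and it was also lost with DESeq2 size factors (0.0588) and in a fit to the 2 groups compared (0.0702). Creld2, an ER stress-inducible folding factor, had -0.02 with TGF-α and rose by 0.25 with gefitinib (adjusted p = 0.0218). Without TGF-α library 1 or gefitinib library 2 that adjusted p was 0.258 and 0.0968, and with DESeq2 it was 0.0832.

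Pdia4, a disulphide isomerase, fell by 0.14 with TGF-α (adjusted p = 0.0278) and was at 0.01 with gefitinib, its levels in the 2 treated groups overlapping. Dnajc3, the p58IPK cochaperone, fell by 0.18 with TGF-α and rose by 0.18 with gefitinib, with adjusted p of 0.0231 and 0.0195. For both genes the fall was lost when 1 of 3 libraries was left out: control library 2 (0.215) or either TGF-α library (0.124 and 0.0904) for Pdia4, and control library 1 (0.177) or either TGF-α library (0.119 and 0.0841) for Dnajc3. Total-count scaling also ended both falls (-0.07, adjusted p = 0.258 for Pdia4 and -0.12, 0.135 for Dnajc3), and DESeq2 that of Dnajc3 (0.0674). The rise of Dnajc3 was lost without either TGF-α library (0.107 and 0.0723) or gefitinib library 2 (0.0963), and with DESeq2 (0.0729). Canx, the membrane-bound relative of calreticulin, had a log2 fold change of -0.13 with TGF-α that did not pass (adjusted p = 0.0604) and that passed without TGF-α library 1 (0.0452) or gefitinib library 2 (0.0429), without the filter (0.0316) and in a fit to the 2 groups compared (0.0424). P4hb, the classic protein disulphide isomerase and also the noncatalytic subunit of prolyl 4-hydroxylase, had -0.07 and -0.07, and its -0.14 against control (adjusted p = 0.051) passed without gefitinib library 2 (0.0318), with DESeq2 (0.00796), with its size factors (0.0397) and without the filter (0.0025). Manf, Dnajb9 and Sdf2l1 had TGF-α log2 fold changes of -0.01, -0.07 and -0.18, with intervals that all spanned 0. The 0.31 of Sdf2l1 with gefitinib (adjusted p = 0.0595) passed without gefitinib library 1 (0.0266).

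In ER-associated degradation, 4 of 7 genes fell with TGF-α and 0 rose, and 4 of 7 rose with gefitinib and 0 fell. Herpud1, a membrane protein that assembles the degradation complex and is strongly induced by ER stress, changed most. It had 199.0 and 190.5 CPM in control, 124.0 and 139.2 with TGF-α, and 211.2 and 200.5 with gefitinib added. The TGF-α libraries lay far below the others, and the gefitinib libraries lay just above control. It fell by 0.56 ± 0.06 with TGF-α (adjusted p = 4.9e-06), a 1.48-fold decrease, and rose by 0.65 ± 0.06 with gefitinib (adjusted p = 1.12e-06). Syvn1, the Hrd1 ubiquitin ligase of the complex, had 83.9 and 82.0, 69.2 and 65.7, and 84.3 and 85.1 CPM. It fell by 0.30 ± 0.06 and rose by 0.33 ± 0.06, with adjusted p of 0.00172 and 0.000737. Sel1l, the adaptor that Syvn1 needs, had 229.2 and 218.5, 204.0 and 206.1, and 235.4 and 245.1 CPM, with the TGF-α libraries lowest. Its TGF-α difference of -0.13 did not pass (adjusted p = 0.0727), and it rose by 0.23 with gefitinib (adjusted p = 0.00252).

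Edem1, a lectin that extracts misfolded glycoproteins, had 102.2 and 91.3 CPM in control, 75.9 and 79.0 with TGF-α, and 88.9 and 86.7 with gefitinib added, so its gefitinib libraries lay between the other groups. It fell by 0.32 ± 0.07 with TGF-α (adjusted p = 0.00195). Its 0.18 with gefitinib narrowly missed (adjusted p = 0.0512) and passed without control library 1 (0.0448) or 2 (0.0454). Derl1, a derlin of the retrotranslocation channel, fell by 0.16 with TGF-α (adjusted p = 0.0363) and rose by 0.25 with gefitinib (adjusted p = 0.00217). The fall was lost without control library 1 (0.243), TGF-α library 1 (0.157) or TGF-α library 2 (0.114), with DESeq2 (0.0994), and with total-count scaling (-0.10, 0.205). Its relative Derl2 did not pass in any comparison, with 0.16 ± 0.09 with TGF-α. Derl3 had 0.80 to 1.53 CPM, and its 95% interval with TGF-α ran from a 0.589-fold to a 2.14-fold ratio, so no change within that range was detectable at this depth.

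Of the 5 sensors and transcription factors, the 2 membrane-bound factors of the Creb3 family fell with TGF-α, while the classic stress sensors did not pass. Creb3l2, known as Bbf2h7, is cleaved to an activator of secretory genes such as Sec23a in cartilage. It had 313.2 and 313.4 CPM in control, 237.3 and 241.3 with TGF-α, and 280.7 and 270.7 with gefitinib added, each group apart from the others. It fell by 0.39 ± 0.05 with TGF-α (adjusted p = 1.36e-05), rose by 0.20 ± 0.05 with gefitinib (adjusted p = 0.00344), and was still lower than control, at -0.18 ± 0.05 (adjusted p = 0.0212). The last call was lost without control library 1 (0.118), control library 2 (0.124) or gefitinib library 2 (0.119), and with total-count scaling (-0.12, 0.122).

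Creb3l1, known as Oasis and best described in bone-forming cells, was the 1 gene of the 42 called lower than control both with TGF-α and with gefitinib added, and not called between those 2 groups. Its libraries had 132.9 and 130.5 CPM in control, 96.9 and 94.9 with TGF-α, and 94.7 and 89.2 with gefitinib added. Both treated groups lay well below control. It fell by 0.46 ± 0.06 with TGF-α (adjusted p = 1.99e-05), had -0.06 ± 0.06 with gefitinib against TGF-α (95% interval -0.18 to 0.06), and was at -0.52 ± 0.06 against control (adjusted p = 4.35e-05). It was the 1 gene among the 42 whose call with gefitinib added against control held under every alternative tried. Xbp1, the factor spliced by Ire1, had log2 fold changes of 0.02, 0.01 and 0.03 in the 3 comparisons. Atf6, the sensor cleaved in the Golgi, had 0.02, -0.07 and -0.05, and Ern1, which encodes Ire1, had -0.02, -0.05 and -0.08. These values are total RNA of each gene. Gene counts do not show Xbp1 splicing or Atf6 cleavage, so the activity of the sensors was not measured.

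Among the 6 translocation and COPII genes, 4 fell with TGF-α and 3 of those rose with gefitinib. Mia3, known as Tango1, the ER exit site receptor that loads procollagen into enlarged carriers, had 201.9 and 193.5 CPM in control, 146.8 and 147.2 with TGF-α, and 185.9 and 183.3 with gefitinib added. It fell by 0.43 ± 0.05 with TGF-α (adjusted p = 1.22e-05) and rose by 0.33 ± 0.05 with gefitinib (adjusted p = 0.000143). Both TGF-α libraries were the lowest, and the gefitinib libraries stayed just under control. Sec23a, the inner COPII coat subunit needed for collagen export in cartilage, had 204.3 and 210.0, 168.3 and 172.8, and 192.3 and 185.8 CPM. Its 3 groups lay in the same order without overlap, with log2 fold changes of -0.28 with TGF-α (adjusted p = 0.00057) and 0.15 with gefitinib (adjusted p = 0.0341). The latter call was lost without control library 2 (0.0509), TGF-α library 1 (0.179), TGF-α library 2 (0.0782) or gefitinib library 1 (0.21), with DESeq2 (0.103), and in a fit to the 2 groups compared (0.0688). Its paralogue Sec23b did not pass in any comparison and had 0.06 ± 0.06 with TGF-α.

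Sec61a1, the channel subunit of the translocon, had 470.4 and 472.5 CPM in control, 407.7 and 385.9 with TGF-α, and 456.9 and 444.1 with gefitinib added. It fell by 0.25 ± 0.05 (adjusted p = 0.000737) and rose by 0.18 ± 0.05 (adjusted p = 0.00639), the rise being lost without TGF-α library 2 (0.0785) or gefitinib library 1 (0.0562). Exons of the antisense gene Gm44170 cover 17.3% of its exon bases. Sec61b, the small channel subunit, did not pass (-0.06 with TGF-α), and its 0.16 with gefitinib (adjusted p = 0.0783) passed without gefitinib library 2 (0.0241). Sec24d, a COPII cargo adaptor, had 348.9 and 340.8, 307.6 and 301.5, and 331.1 and 323.1 CPM. It fell by 0.18 ± 0.05 with TGF-α (adjusted p = 0.0075), a call lost without control library 1 (0.0644) or TGF-α library 2 (0.0635) and with total-count scaling (-0.11, 0.0707), and had 0.10 ± 0.05 with gefitinib.

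The 9 collagen-modifying genes held both extremes of the 42. With TGF-α 2 rose and 4 fell, and with gefitinib 3 rose and 2 fell. Serpinh1, which encodes the collagen chaperone Hsp47, had 5680 and 5727 CPM in control, 3411 and 3637 with TGF-α, and 5597 and 5567 with gefitinib added. The TGF-α libraries stood far below the rest and the gefitinib libraries just under control. It fell by 0.69 ± 0.04 with TGF-α (adjusted p = 8.13e-09), a 1.62-fold decrease, rose by 0.66 ± 0.04 with gefitinib (adjusted p = 1.3e-08), and had -0.03 ± 0.04 against control (95% interval of the ratio 0.921 to 1.04). Fkbp10, the Fkbp65 prolyl isomerase that works beside Hsp47 on procollagen, had 1001 and 959.6, 667.7 and 652.4, and 897.3 and 928.0 CPM. It fell by 0.57 ± 0.04 with TGF-α (adjusted p = 1.18e-07) and rose by 0.47 ± 0.04 with gefitinib (adjusted p = 9.62e-07). Its groups did not overlap in any comparison.

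Plod2, the lysyl hydroxylase of the collagen telopeptides, fell as well. It had 564.1 and 595.4 CPM in control, 416.5 and 457.8 with TGF-α, and 578.7 and 548.3 with gefitinib added. It fell by 0.41 ± 0.05 (adjusted p = 3.25e-05) and rose by 0.37 ± 0.05 (adjusted p = 8.2e-05). The other lysyl hydroxylases did not pass in any comparison. Plod1 had log2 fold changes of -0.05 and 0.08, and Plod3 had 0.02 and 0.12, with an adjusted p of 0.0502 for the last. Exons of the opposite-strand gene Znhit1 cover 16.1% of the exon bases of Plod3, and those of Gm38391 cover 9.32% of Plod2. Crtap, a subunit of the complex that hydroxylates selected prolines of collagen chains, fell by 0.22 ± 0.06 with TGF-α (adjusted p = 0.00709). That call was lost without control library 1 (0.117) or TGF-α library 2 (0.0526). Its 0.15 with gefitinib (adjusted p = 0.0544) passed without control library 1 (0.0413) or 2 (0.0439).

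The 3 catalytic subunits of prolyl 4-hydroxylase, which pair with P4hb and stabilise the collagen triple helix, did not move as one, since P4ha2 and P4ha3 rose with TGF-α and P4ha1 did not pass. P4ha2 had 516.5 and 532.0 CPM in control, 754.0 and 740.0 with TGF-α, and 496.5 and 535.5 with gefitinib added. The TGF-α libraries were far above the others, which overlapped. It rose by 0.51 ± 0.05 with TGF-α (adjusted p = 9.03e-07), a 1.42-fold increase, and fell by 0.53 ± 0.05 with gefitinib (adjusted p = 5.52e-07). P4ha3 had 99.1 and 96.8, 126.6 and 131.8, and 77.2 and 82.0 CPM, so its gefitinib libraries lay below control. It rose by 0.40 ± 0.06 with TGF-α (adjusted p = 8.61e-05), fell by 0.70 ± 0.06 with gefitinib (adjusted p = 3.4e-07), and was at -0.30 ± 0.06 against control (adjusted p = 0.00538). The last call was lost without control library 1 (0.0604). P4ha1 did not pass in any comparison, with -0.08 ± 0.04, 0.07 ± 0.04 and -0.01 ± 0.04.

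Per kilobase of exon (GENCODE M21 basic annotation), P4ha2 made up 50.5% ± 0.706 of the 3 subunits' summed level in control, 58.9% ± 0.575 with TGF-α and 51.1% ± 0.15 with gefitinib added (SD, n = 2). The share of P4ha1 was 40.2%, 31.1% and 41.1%, and that of P4ha3 9.34%, 10.1% and 7.82%. No test was run on these shares, and the libraries of the TGF-α group did not overlap those of the other groups for any of the 3 subunits. On the same per-kilobase scale, Serpinh1 had the highest level of the 42 in control at 2335 CPM per kb, followed by P4hb at 779, Calr at 664, Fkbp10 at 379 and Hspa5 at 357. Ern1 at 7.04 and Derl3 at 0.882 had the lowest. The basic annotation holds partial transcripts for some genes, Mia3 among them, so a per-kilobase level depends on that set.

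Set beside their cargo, the groups of genes differed. The summed level of 19 collagen chains was 106900 ± 5240 CPM in control, 62420 ± 1282 with TGF-α and 87630 ± 2455 with gefitinib added. Of the 19 chains, 14 fell and 4 rose with TGF-α, with Col2a1 at -0.83, Col11a1 at -1.25 and Col6a3 at 1.08 on the log2 scale. The 9 collagen-modifying genes summed to 9656 ± 8.37, 7184 ± 166 and 9453 ± 61.5 CPM. Serpinh1 alone made up 5704, 3524 and 5582 CPM of these sums, and most of their fall with TGF-α was its own. The 15 chaperones and folding enzymes summed to 9285 ± 1.69, 8945 ± 7.07 and 9097 ± 197 CPM. Among these 3 sums, that of the collagen chains was lowered most by TGF-α in proportion, and that of the chaperones least.

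For every 1000 CPM of collagen chains, chaperones and folding enzymes came to 83.9 and 89.9 CPM in the control libraries, 141.3 and 145.3 with TGF-α, and 100.2 and 107.5 with gefitinib added. The collagen-modifying genes came to 87.3 and 93.5, 111.6 and 118.7, and 105.3 and 110.6 CPM on the same scale. In both, the TGF-α libraries were the highest and the control libraries the lowest. Serpinh1 by itself came to 51.3 and 55.5 CPM in control, 53.9 and 59.1 with TGF-α, and 62.6 and 64.8 with gefitinib added, so that control and TGF-α overlapped. No test was run on these ratios. A CPM is a share of the library, so a ratio compares shares and does not give RNA per cell.

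**Figure D3:**
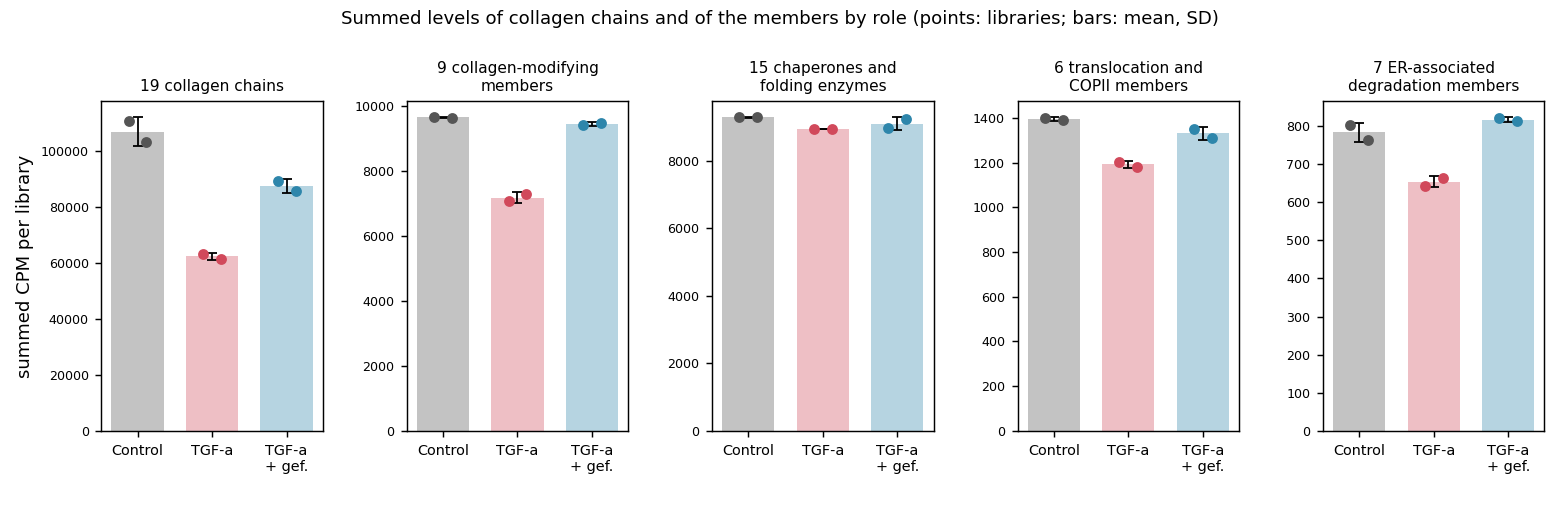
Summed CPM of 19 collagen chains and of 4 role groups of the genes in each group of libraries; points are the 2 libraries, bars their mean and whiskers the SD, and each axis starts at 0. The collagen sum is 106900 CPM in control and 62420 with TGF-α, while the chaperone sum is 9285 and 8945.

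The motif matches were set beside these changes. Of the 9 genes with an ERSE match, 2 rose (Hsp90b1 and Pdia6), 3 fell (Calr, Dnajc3 and Syvn1) and 4 did not pass with TGF-α (Hspa5, Canx, Creld2 and Derl3). With gefitinib 5 of the 9 rose and 2 fell. Over all tested genes 15.9% rose and 14.0% fell with TGF-α, and 17.0% rose and 16.9% fell with gefitinib. The TGF-α calls of Hsp90b1 and Dnajc3 were each lost under several alternatives, as given above. Among the TGF-α rises only that of Pdia6 held throughout, and among the falls those of Calr and Syvn1. These 9 genes were thus called in both directions. Both genes with an ERSE-II match, Herpud1 and Dnajb11, fell with TGF-α and rose with gefitinib, and they had the largest changes of their roles. The ERSE-II match lay 52 to 42 bases before the start in Herpud1 and at bases 8 to 18 after it in Dnajb11. Both genes with a UPRE match, Sec23a and Sec24d, fell with TGF-α. Of the 112 other tested genes with a UPRE match, 14 rose, 26 fell and 72 did not pass, with a median of -0.06. Serpinh1, P4ha2 and P4ha3, which were among the genes that changed most, had a window but none of the 3 longer motifs in it. The window of P4ha2 lay inside the annotated gene, so the sequence before its first start was not searched. These counts come from few genes and describe them only.

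**Figure D4:**
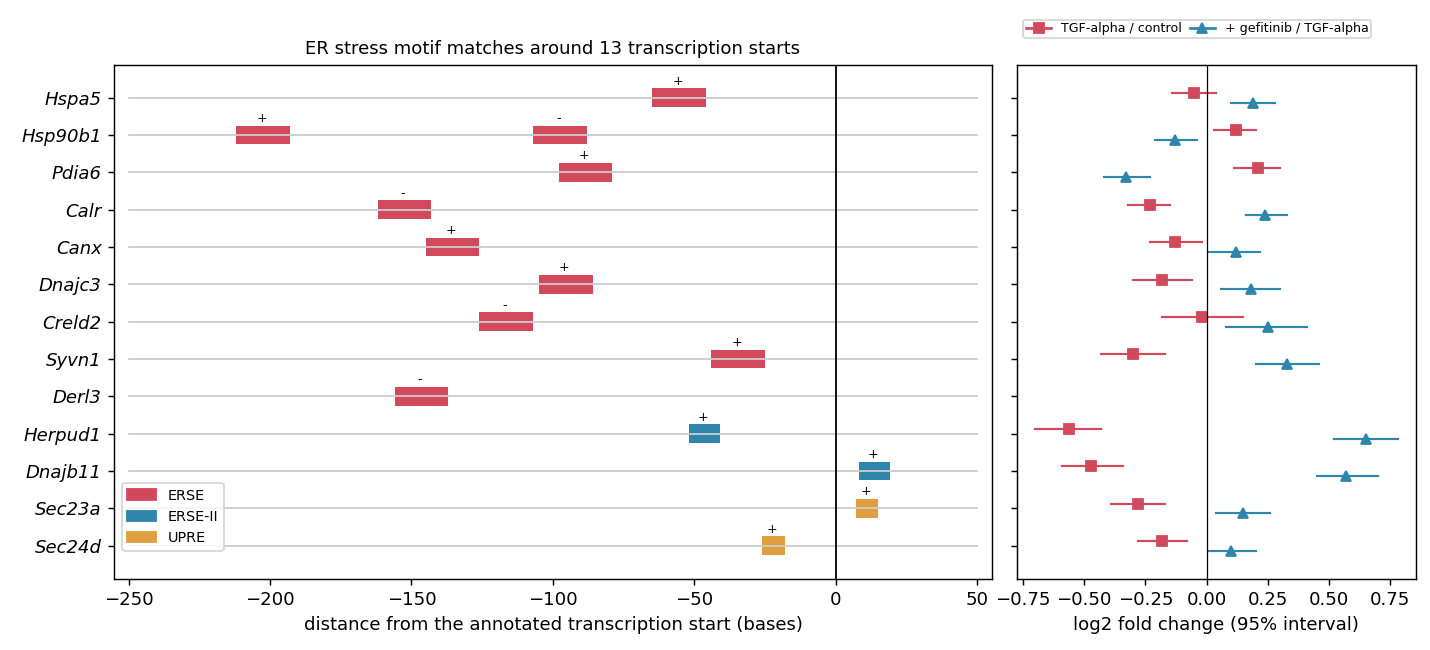
Left, position of ERSE, ERSE-II and UPRE matches relative to the RefSeq transcription start of 13 genes, in bases, with the strand of the match above each bar. Right, log2 fold change with 95% interval for TGF-α against control (squares) and for TGF-α plus gefitinib against TGF-α (triangles); Herpud1 and Dnajb11, the 2 genes with ERSE-II, fell by 0.56 and 0.47 and rose by 0.65 and 0.57, and Derl3 has no plotted fold change.

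The rest of the pathway was taken from 135 further genes of the ER and secretory route, of which 132 could be tested. They too were chosen with earlier results of these data known. With TGF-α 14 rose and 58 fell (median -0.16), with gefitinib added 50 rose and 18 fell (median 0.12), and against control 8 rose and 7 fell (median -0.01). Over all tested genes 15.9% rose and 14.0% fell with TGF-α, 17.0% and 16.9% with gefitinib added, and 5.27% and 4.26% against control. The counts against control were near those shares. The same shares are the background for each further list below. The count of falls with TGF-α was 38 without control library 2, that of rises was 8 without TGF-α library 2, and the 8 rises against control were 4 without control library 1, 3 without control library 2 and 4 without gefitinib library 2. The 7 falls against control were 0 to 4 when any 1 library was left out, with 0 without control library 2. The 20 other folding genes had 7 rises and 4 falls with TGF-α. Qsox1, a sulphydryl oxidase, rose by 0.84 and fell by 0.85 with gefitinib, Ero1l, the oxidase that recharges disulphide isomerases, rose by 0.67 and fell by 0.41, and Fkbp11 rose by 0.55 and fell by 0.61. Cdc37l1, counted in this list although it is a cofactor of cytosolic Hsp90, fell by 0.43 and rose by 0.55. Ero1l was also higher than control with gefitinib added (0.26), a call lost without control library 2 (adjusted p = 0.0681).

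Among 19 other stress sensors and regulators, 17 could be tested, and 10 fell and 2 rose with TGF-α while 10 rose and 2 fell with gefitinib. Atf4, the factor translated when Perk or related kinases act, fell by 0.74 and rose by 0.77. Trib3 and Ppp1r15a, both known targets of Atf4, each fell by 0.80 and rose by 1.05 and 1.08. Ddit3, which encodes Chop, fell by 0.62, rose by 1.47, and was 0.85 above control with gefitinib added (adjusted p = 3.46e-07). Trib3 and Ppp1r15a were above control too, by 0.25 and 0.27, calls lost without control library 2 (0.058) for Trib3 and without control library 1 (0.0761), control library 2 (0.13) or gefitinib library 2 (0.108) for Ppp1r15a. These shifts were larger than those of Xbp1, Atf6 and Ern1 given above, a comparison of estimates that was not itself tested.

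Of 20 other collagen-processing genes, 14 fell and 2 rose with TGF-α, and 14 rose and 2 fell with gefitinib. Lepre1, the prolyl 3-hydroxylase partner of Crtap, fell by 0.79 and rose by 0.86. Pcolce2, an enhancer of procollagen cleavage, fell by 1.52 and rose by 1.66, Sparc, a collagen-binding chaperone of the matrix, fell by 0.69 and rose by 0.62, and Fkbp9 fell by 0.56 and rose by 0.50. Ppib, the cyclophilin of the Crtap and Lepre1 complex and named here after its values were seen, had -0.08 with TGF-α and did not pass, so the 3 subunits had different estimates. In COPII and ER exit 13 of 30 genes fell and 0 rose with TGF-α. Gosr2 fell by 0.42, Sec16b by 0.50 and Sec31a by 0.29, and Kdelr3 fell by 0.24, a call lost without control library 2 (0.177) or TGF-α library 1 (0.103), and with total-count scaling (0.0658). Ctage5, the partner of Mia3 at exit sites and also chosen after its values were seen, fell by 0.39 and rose by 0.32.

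In the translocon and glycosylation list 9 of 26 genes fell and 2 rose with TGF-α. Sec62 fell by 0.44 and rose by 0.64 with gefitinib, Ssr3 fell by 0.24, and Spcs3, a signal peptidase subunit, rose by 0.54 and fell by 0.51. Srp54a fell by 0.92, but it has near-identical copies and its counts are uncertain. In the other degradation list, 8 of 19 tested genes fell and 1 rose with TGF-α. Vimp, part of the retrotranslocation machinery, fell by 0.49 and rose by 0.49 with gefitinib. Os9, a lectin of the Hrd1 complex, fell by 0.21 and Faf2 by 0.25. Their rises with gefitinib, 0.13 and 0.16, lost their call without any 1 library of the 6 for Os9 (adjusted p 0.0607 to 0.218) and without any TGF-α or gefitinib library for Faf2 (0.0541 to 0.166). DESeq2 ended both as well (0.0911 and 0.144), as did the fit without the filter (0.065 and 0.0595) and the fit to the 2 groups compared (0.0919 and 0.0638), and DESeq2 size factors ended that of Os9 (0.0545).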

How the data were processed

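Gene counts of 6 libraries were used as the authors deposited them, as whole-number counts per gene for 44788 gene symbols. The submitters' processing notes name the build GRCm38, and the sources used here do not give the aligner, the annotation or the strand setting. Counts were scaled by TMM and tested with edgeR 4.0.16 in R 4.3.3 (quasi-likelihood, two-sided, 3 groups in 1 model, residual df 3) after a filter with a minimum count of 10, which left 15362 genes, and p-values were adjusted by Benjamini-Hochberg over those. Genes were called at an adjusted p under 0.05. CPM uses the TMM library sizes. On simulated counts with known changes the test recovered most of the large changes and few of the smallest, and a larger share of its calls was false than the threshold allows. The members and lists were chosen with earlier results of these data known. Values per library are given for up to 5 called members of each role, those with the smallest p, and for members that went against their role, and up to 4 called genes with the smallest p are named from each further list, except 1 gene that is not reported here. Promoter windows came from RefSeq (GRCm38.p6), and gene lengths and overlaps from GENCODE M21 basic. Alternatives were DESeq2 1.42.0, its size factors in edgeR, total-count scaling, no filter, a replicate block, fits to the 2 groups compared and leaving out each library. A group with 1 library left is assumed to vary like the others.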

Additional observations from a re-analysis of the deposited data

How the results depend on the processing

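No gene among the 42 reversed its direction in a called comparison under the 12 alternatives, and 17 of 23, 16 of 22 and 1 of 4 calls held in all of them for TGF-α against control, gefitinib added against TGF-α, and gefitinib added against control. The single rise against control became 0 with DESeq2 size factors, 0 in a fit to the 2 groups compared, 2 without the filter and 4 with total-count scaling, and 0 to 1 when 1 library was left out. The 3 falls against control became 6 without the filter and 1 to 3 with 1 library left out, and the 5 falls with gefitinib against TGF-α became 3 to 5. In the further list of 135, the 14 rises with TGF-α became 8 to 16 with 1 library left out, and the 58 falls became 36 with total-count scaling and 38 to 59 with 1 library left out. The 8 rises against control became 13 with total-count scaling and 3 to 7 with 1 library left out, and the 7 falls became 4 with DESeq2, 3 with total-count scaling and 0 to 4 with 1 library left out. The cause was not tested. Total-count scaling moved the share of rises among all calls from 53.2% to 65.4% with TGF-α and from 55.3% to 77.5% against control. Over all genes, 5217 calls with gefitinib against TGF-α became 3451 with DESeq2, and 1463 calls against control became 900 with DESeq2 and 649 to 1291 with 1 library left out (666 without control library 1, 649 without control library 2 and 893 without gefitinib library 2). Same-numbered libraries did not deviate together over the tested genes (correlations of 0.0106, 0.000537 and -0.0237). With 2 libraries a group, counting noise weighs on these values, so they cannot exclude a pairing. With the replicate number as a block, 4450, 5042 and 1335 genes were called against 4600, 5217 and 1463, and among the 42 only Sdf2l1 with gefitinib was added (adjusted p = 0.0421) and 0 calls were lost. With 2 libraries a group, intervals are wide for small differences, and counts were lowest for Derl3.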

Other observations

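Few genes outside the 42 carried ERSE or ERSE-II. Over all tested genes 15.9% rose and 14.0% fell with TGF-α, and 17.0% rose and 16.9% fell with gefitinib. The counts below are too small to be set apart from these shares. ERSE matched 28 others, of which 10 could be tested, and with TGF-α 2 fell and 0 rose: Spats2l by 1.05 (adjusted p = 9.7e-08) and Adcy3 by 0.22, a call lost without control library 1 (0.203), TGF-α library 1 (0.0679) or TGF-α library 2 (0.141), with DESeq2 (0.118) and with total-count scaling (0.103). Of the 108 further pathway genes with a window, 1 held an ERSE match, Ero1lb, which had 4.14 and 3.12 CPM in control and did not pass with TGF-α (adjusted p = 0.234). ERSE-II matched 10 others, of which 6 could be tested. Krtcap2, a subunit of the oligosaccharyltransferase, had 94.3 and 93.0 CPM in control, 75.5 and 76.5 with TGF-α, and 108.7 and 105.0 with gefitinib added. It fell by 0.30 (adjusted p = 0.00107) and rose by 0.49 (adjusted p = 1.03e-05), the same directions as given for Herpud1 and Dnajb11 in the report. Nucb1, a calcium-binding protein of the Golgi, had -0.13 with TGF-α (adjusted p = 0.0712) and rose by 0.31 with gefitinib (adjusted p = 0.000198). Lgalsl went the other way, with 0.21 with TGF-α (adjusted p = 0.12) and -0.33 with gefitinib (adjusted p = 0.0143), a call lost without TGF-α library 1 (0.0941) or gefitinib library 2 (0.0896) and with DESeq2 (0.0805). Lrif1 and Rcl1 did not pass in any comparison, and Rbm39 fell by 0.15 (adjusted p = 0.024), a call lost without any 1 control or TGF-α library (0.0819 to 0.116) and with total-count scaling (0.191). With gefitinib added against control, Krtcap2 (0.19, adjusted p = 0.0488) and Nucb1 (0.19, 0.0303) were higher and Rbm39 (-0.16, 0.0447) was lower. Each of these calls was lost in a fit to the 2 groups compared (0.0743, 0.058 and 0.0618). Herpud1 and Dnajb11 were not called in that comparison. The genes outside the 42 were named here after their values were seen.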
